A study of Mus musculus with 2 samples.

Results

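Cdkn1a and 9 other genes known as targets of the transcription factor p53 were followed in the liver of mice treated in different ways at the end of a long depletion of n-3 polyunsaturated fatty acids. The genes were Cdkn1a, Mdm2, Ccng1, Bax, Btg2, Gadd45a, Sesn1, Trp53inp1, Phlda3 and Gdf15, and every probe set that the array's annotation assigns to 1 of these symbols alone was taken. Such probe sets were found for 8 of the 10 genes, 18 in all, among 18193 genes named in this way. Bax and Gdf15 had none, so no value is given for them. The genes were chosen by earlier readings of these same 2 arrays, in which the signals of Cdkn1a already stood apart, so the differences are given as a description.

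Male C57Bl/6J mice, 9 weeks old on arrival, were acclimatised for 1 week. They received a diet in which sunflower oil replaced soybean oil, with an n-6/n-3 ratio of 127.2, in an experiment of 112 days. In the last 10 days the DEF/FOS mice were kept on it and had fructooligosaccharides (FOS), which gut bacteria ferment, in their water, for an intake of 0.25 g per day. The DEF/CT mice were moved to the control diet with soybean oil, at a ratio of 6.9. The labels give 8 mice for each group, and they give 4 to 8 mice as the range that was pooled. The RNA of a group was pooled in equal amounts, and 1 Affymetrix array was run for each pool. Both groups had therefore been depleted, and they differed in the fibre and in the oil, whose parts cannot be told apart. A single array stands for each group, so no value below has a replicate, a test or an error between animals.

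p53 is a transcription factor that is held low by the ubiquitin ligase Mdm2 and is stabilised by DNA damage and other stresses. Its targets stop the cell cycle, lead to cell death, take part in repair and metabolism, or feed back on p53 itself. Cdkn1a encodes p21, an inhibitor of cyclin-dependent kinases, which in liver is known for restraining hepatocyte division after injury and is also switched on by stimuli that do not pass through p53.

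The deposited values are MAS5 signals, in arbitrary units on a linear scale. A floor was set at a signal of 19.4, the median over all probe sets of the geometric mean of both arrays, and it is not a detection call. Differences are given on the log2 scale as DEF/FOS minus DEF/CT, after the median of all probe sets above the floor was set to 0. Each gene is represented by its brightest probe set unless all are named. The only repeated readings are different probe sets of the same gene, and their SD, 0.38 on the log2 scale over 4885 genes, serves as a yardstick of technical spread. That SD was 0.58 at signals from 19.4 to 37.4, 0.45 up to 84.3, 0.32 up to 235 and 0.21 above it. Neither animals nor arrays enter this SD.

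The arrays were alike in hybridisation spikes and in hepatocyte markers, but the DEF/CT array stood apart by skeletal muscle genes. The trimmed mean was 100.0 in both as deposited, so it cannot tell the arrays apart. The median signal was 19.6 in DEF/FOS and 21.9 in DEF/CT. The median difference of 18 hybridisation spikes was -0.07 on the log2 scale before centring, with an SD of 0.06. Hepatocyte markers showed the labelled tissue, with summed signals of 51516 in DEF/FOS and 53226 in DEF/CT over 6 genes, led by Apoa1 and Ttr. Skeletal muscle markers were lower in DEF/FOS in 8 of 8 genes, with summed signals of 80.7 against 2270, and 7 of the 8 lay below the floor there. Acta1 had 16.9 against 677 and Mylpf 33.8 against 168. Neutrophil markers summed to 353 in DEF/FOS against 139, led by S100a8 at 147 against 33.8 and S100a9 at 110 against 35.1. Of the 7 neutrophil genes, 5 were higher in DEF/FOS and 2 lower, but 3 of the 7 lay below the floor. Of the 4 above the floor, only S100a8 and S100a9 were at least 2-fold higher. Kupffer cell markers were higher in 7 of 7 genes, where 49.9% of all genes were above 0. Their summed signals were 3347 against 2822, led by Csf1r and Cd5l. Only Marco among them reached 1.5-fold, at 131 against 61.6, and the 3 Csf1r probe sets ran from -0.08 to 0.27. Cholangiocyte markers summed to 125 against 92.4, endothelial markers to 1630 against 1643, stellate cell markers to 1854 against 1898, B cell markers to 55.8 against 94.7 and T and NK cell markers to 67.6 against 82.4. No marker was at 0 in either pool. In tissue RNA, more cells of a type and more RNA per cell cannot be told apart.

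Of the 18 probe sets, 16 lay above the floor, and each of the 8 genes had its brightest probe set above the floor in both pools, so none passed through 1 pool only. Cdkn1a was the sole gene of the 8 that was at least 2-fold higher in DEF/FOS, and Cdkn1a and Gadd45a were the 2 that were at least 1.5-fold higher. None was at least 1.5-fold lower. Over the 11163 genes that passed the floor, 6.75% reached 1.5-fold on the DEF/FOS side and 7.82% on the DEF/CT side, and 1.74% and 2.19% reached 2-fold. Because the genes were chosen with these results in view, nothing is read from the count of 2 in 8 against that background. The median difference of the 8 genes was 0.25, beside 0.00 for all genes, whose middle 50% ran from -0.24 to 0.22. In 6 of the 8 genes the difference was above 0, as it was in 49.9% of all genes.

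**Figure D1:**
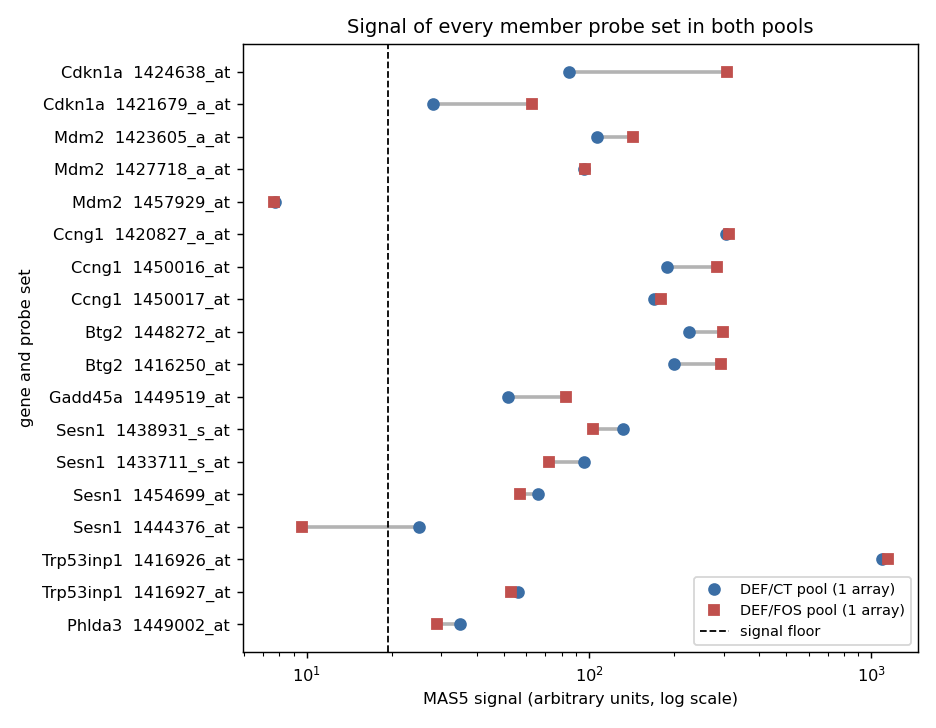
MAS5 signal (log axis) of each of the 18 probe sets in DEF/CT (circles) and DEF/FOS (squares), 1 array each, with the signal floor of 19.4 as a dashed line. Both Cdkn1a probe sets are far to the right in DEF/FOS, the Sesn1 probe sets lie to the left there, and 1 probe set each of Mdm2 and Sesn1 falls below the floor by its mean.

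Among the growth-arrest genes, the brighter Cdkn1a probe set, 1424638_at, had a signal of 309 in DEF/FOS and 84.8 in DEF/CT. The dimmer one, 1421679_a_at, had 62.6 and 28.1. The gene was thus higher in DEF/FOS by both readings, 3.68-fold by the brighter and 2.25-fold by the dimmer, or 1.88 and 1.17 on the log2 scale. In the order of differences from the highest, Cdkn1a held place 28 of 11163 genes. Its difference was several times the SD of 0.32 between probe sets at this signal. The summed signals of neutrophil and Kupffer cell markers, given above, lay on the same side, and their part in the Cdkn1a difference was not tested.

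Btg2, an antiproliferative protein that recruits the machinery shortening mRNA tails, had signals of 298.5 against 226 in its brighter probe set, 1448272_at. Its other probe set, 1416250_at, had 294 against 201. Both readings were higher in DEF/FOS, by 0.41 and 0.57 on the log2 scale, above the SD of 0.21 at this signal but short of 1.5-fold. Gadd45a, a small stress-inducible protein that acts on cell cycle kinases and MAP kinase signalling, had a single probe set, with a signal of 82.7 in DEF/FOS and 51.8 in DEF/CT. It was 1.61-fold higher in DEF/FOS, a log2 difference of 0.69 where the SD between probe sets is 0.45, and it held place 514 in the order. The 3 growth-arrest genes, chosen with their values known, all lay on the DEF/FOS side, where 49.9% of all genes lay. Cdkn1a had the largest difference of the 3.

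The genes that feed back on p53 gave less even readings. Mdm2, the ligase that marks p53 for breakdown, had 143 against 107 in the probe set 1423605_a_at, 1.35-fold higher in DEF/FOS. A further Mdm2 probe set, 1427718_a_at, gave 97.1 against 95.6, a difference of 0.04, and the third lay at 7.64 and 7.75, under the floor in both pools. Only the first Mdm2 probe set therefore placed the pools apart, and its difference of 0.43 compares with an SD of 0.32 between probe sets. Ccng1, the cyclin G that recruits a phosphatase to Mdm2, had 3 probe sets annotated to the same transcript. The brightest, 1420827_a_at, had signals of 313 and 305 in DEF/FOS and DEF/CT, a difference of 0.05. The probe set 1450016_at had 284 against 190, a 1.51-fold difference, and 1450017_at had 180 against 169, a difference of 0.10. Of the 3 Ccng1 readings, that of 1450016_at was apart by more than the SD of 0.32 at its signal. The other readings were within the SD at theirs.

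Trp53inp1, a stress protein that cooperates with p53 in cell death and takes part in autophagy, had signals of 1143 and 1093 in DEF/FOS and DEF/CT by its brighter probe set, and 53.1 and 56.2 by the dimmer. The log2 differences of 0.08 and -0.07 were opposite in sign and within the SD between probe sets. Sesn1, a sestrin that restrains TORC1 signalling and oxidative damage, was lower in DEF/FOS by all of its probe sets. Its signals in DEF/FOS and DEF/CT were 104 and 132 by the probe set 1438931_s_at. They were 72.3 and 96.3 by 1433711_s_at, and 57.0 and 65.8 by 1454699_at. The log2 differences of these 3 ran from -0.40 to -0.19, none of them at 1.5-fold. The fourth Sesn1 probe set, 1444376_at, had 9.65 against 25.0 and lay below the floor by its mean. Skeletal muscle markers, at 80.7 against 2270 in sum, were lower on the same side, and their part in the Sesn1 difference was not tested. Phlda3, which blocks AKT at the membrane, had a single dim probe set with signals of 29.0 against 35.1, a difference of -0.26 where the SD between probe sets is 0.58.

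**Figure D2:**
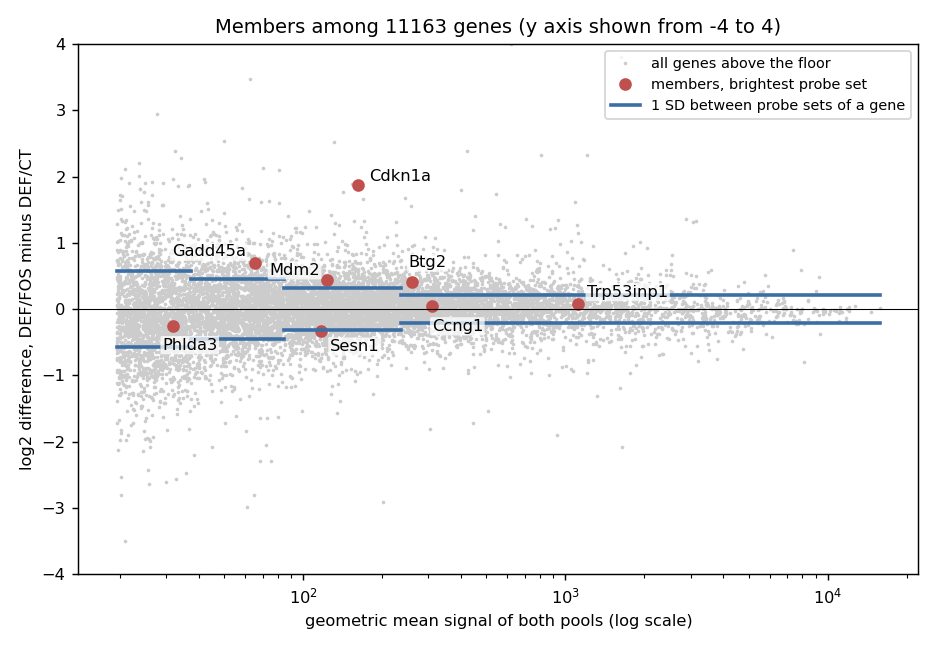
Log2 difference (DEF/FOS minus DEF/CT) against the geometric mean signal of both pools (log axis) for 11163 genes (grey, 1 point per gene), with the 8 genes as red points and 1 SD between probe sets of a gene as blue lines in 4 signal bands. Cdkn1a at 1.88 lies far outside the lines, Gadd45a, Mdm2, Btg2 and Sesn1 lie at or past them, and Ccng1, Trp53inp1 and Phlda3 lie inside.

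The genes are on different chromosomes or far apart, as RefSeq places them in the build GRCm38.p6. Cdkn1a lies at chr17:29090979-29100722, Gadd45a at chr6:67035096-67037407, Ccng1 at chr11:40748552-40755309 and Mdm2 at chr10:117688875-117710758. Btg2 lies at chr1:134074865-134079155 and Phlda3 at chr1:135766085-135769134, both on chromosome 1. Sesn1 lies at chr10:41810574-41908436 and Trp53inp1 at chr4:11156441-11174379.

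RefSeq sequence windows from 250 bases before to 50 after a gene's start were searched for the p53 half-site consensus, which reads the same on both strands. Of the 10 genes, 9 had a window, 12 windows in all because some have several starts, and 6 windows, of Cdkn1a, Ccng1, Gadd45a, Mdm2, Sesn1 and Bax, held at least 1 half-site with no mismatch. Of all 32851 windows in the table, 8.36% held one. A stricter pattern, 2 half-sites side by side with no gap and at most 1 mismatch over both, was in 22 windows of the table, 0.067%, and 2 of these belonged to Cdkn1a and Ccng1. The windows of Btg2, Phlda3 and Gdf15 held no half-site. A match describes letters in this window only, and sites elsewhere in the genes were not searched. The 3 stretches below are shown because they set the gene with the largest difference, the gene next to it and the gene with the other adjacent pair side by side. They are written 5′ to 3′ on the gene's strand, and capitals mark the adjacent pair in Cdkn1a and Ccng1 and the single half-site in Gadd45a.
Cdkn1a, chr17:29090888-29090978, plus strand: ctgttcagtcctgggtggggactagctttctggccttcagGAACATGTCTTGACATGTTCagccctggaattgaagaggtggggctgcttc
Ccng1, chr11:40755422-40755521, minus strand: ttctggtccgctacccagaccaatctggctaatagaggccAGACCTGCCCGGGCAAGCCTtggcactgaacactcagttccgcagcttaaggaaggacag
Gadd45a, chr6:67037408-67037487, minus strand: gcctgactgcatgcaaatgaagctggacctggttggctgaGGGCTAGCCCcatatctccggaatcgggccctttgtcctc

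The Cdkn1a pair lies at positions -51 to -32 from the upstream of the 2 Cdkn1a starts in the table, which are 2790 bases apart. Counted from the downstream start it lies at -2841 to -2822. The window of the downstream start held no half-site. The Ccng1 pair lies at -195 to -176 from its start. The Cdkn1a window held a further half-site with no mismatch, at -73, printed above in small letters. With the half-site at -51 it forms a pair with no mismatch and a spacer of 12 bases, at -73 to -42. The Ccng1 window held 1 half-site with no mismatch, at -185. Both windows thus carry the adjacent pair but are not alike in their other sites. The differences of Cdkn1a and Ccng1 were 1.88 and 0.05 by their brightest probe sets.

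p53 is encoded by Trp53, which had no probe set named for it alone. Of 17 other genes that regulate p53 or its relatives, 14 lay above the floor, with a median difference of -0.06. None reached 1.5-fold on the DEF/FOS side and 1 did so on the DEF/CT side, beside 6.75% and 7.82% of all genes. The lower one was Trp73, a p53 relative, at 23.2 against 35.6, close to the floor. Mdm4, the partner of Mdm2 that masks p53, had 127 against 101 by its brightest probe set, a difference of 0.34. Its 4 probe sets ran from -0.49 to 0.43, but the ends rest on signals next to the floor, 19.3 against 27.3 and 23.9 against 17.9. With the floor in place of the lower signal they were -0.48 and 0.31. The remaining probe set was dim too, at 23.6 against 28.9. Ppm1d, a phosphatase that turns off p53 signalling and is itself a p53 target, had 49.4 against 59.0, a difference of -0.24, and its other probe set gave 0.33. Ppp1r13b, a p53-binding protein that favours cell death, had the largest positive difference among these regulators, 0.38. Of the 9 regulators with several probe sets above the floor, 7 had readings of opposite sign.

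A list of 43 further p53 targets was examined, of which 40 had a probe set and 32 lay above the floor. At least 1.5-fold higher in DEF/FOS was 1 of the 32, and 3 were at least 1.5-fold lower, beside 6.75% and 7.82% of all genes. The median difference was 0.01, with 17 above 0 and 15 below. By the brightest probe sets, none was 2-fold apart in either direction. Prkab1, a regulatory subunit of AMP-activated kinase, passed 2-fold by its dimmer probe set, at 78.3 against 24.6, a 3.22-fold difference, where its brighter one had 185 against 148 and differed by 0.33. Of the 10 further targets with several probe sets above the floor, 4 had readings of opposite sign.

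Among the death genes, 3 of 10 differences were above 0, where 49.9% of all genes were, and the median of -0.23 lay within the middle 50% of all genes. The 2 death genes with several probe sets above the floor, Siva1 and Aen, had readings of opposite sign. Siva1, at -0.03 by its brightest probe set, had another at 0.36. Aen, at 0.24 by its brightest, had 4 probe sets that ran from -0.22 to 0.88. Skeletal muscle markers were lower in DEF/FOS too, and their part in these differences was not tested. Trp53i11 was 1.83-fold lower in DEF/FOS, at 39.9 against 73.9. Fas, the death receptor, had 101 against 131, and Bbc3, which encodes the BH3-only protein PUMA, had 58.1 against 75.7. Both differed by -0.37, short of 1.5-fold. Pidd1, an adaptor for caspase-2 activation, differed by -0.46 at signals of 19.8 and 27.4, next to the floor. Pmaip1, encoding NOXA, lay at 1.53 and 12.3, under the floor in both pools, where signals have no order.

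Among growth control targets, 4 of 7 lay above the floor, 2 with a difference above 0 and 2 below, with a median of 0.11. Zmat3, an RNA-binding protein, had 60.0 against 42.7 and differed by 0.51, the kinase gene Plk3 had 162 against 137 and differed by 0.26, and the phosphatase-like gene Ptprv was 1.87-fold lower at 27.6 against 52.1. The 6 repair targets had a median of 0.04. Rrm2b, the ribonucleotide reductase subunit of resting cells, was 1.52-fold lower in DEF/FOS at 35.7 against 54.7. The damage-recognition gene Xpc differed by -0.21, and Pcna, the sliding clamp that p21 also binds, had 697 against 627 and differed by 0.17.

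Among 9 metabolic targets the median was 0.09. Tigar, which lowers glycolytic flux, was 1.51-fold higher at 98.0 against 65.4, but its 3 probe sets ran from -0.33 to 0.60. Lpin1, a phosphatidate phosphatase and coactivator of fatty acid oxidation, had 1461 against 1062 and differed by 0.48. Sco2, an assembly factor of cytochrome oxidase, had 499 against 689 and differed by -0.45. Sesn2, the stress-inducible sestrin, differed by 0.18. Of the 7 remaining targets 3 lay above the floor, and their differences ran from -0.06 for Ddit4, an inhibitor of TORC1, over 0.02 for the plexin gene Plxnb2 to 0.17 for the ribosomal protein gene Rps27l.

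**Figure D3:**
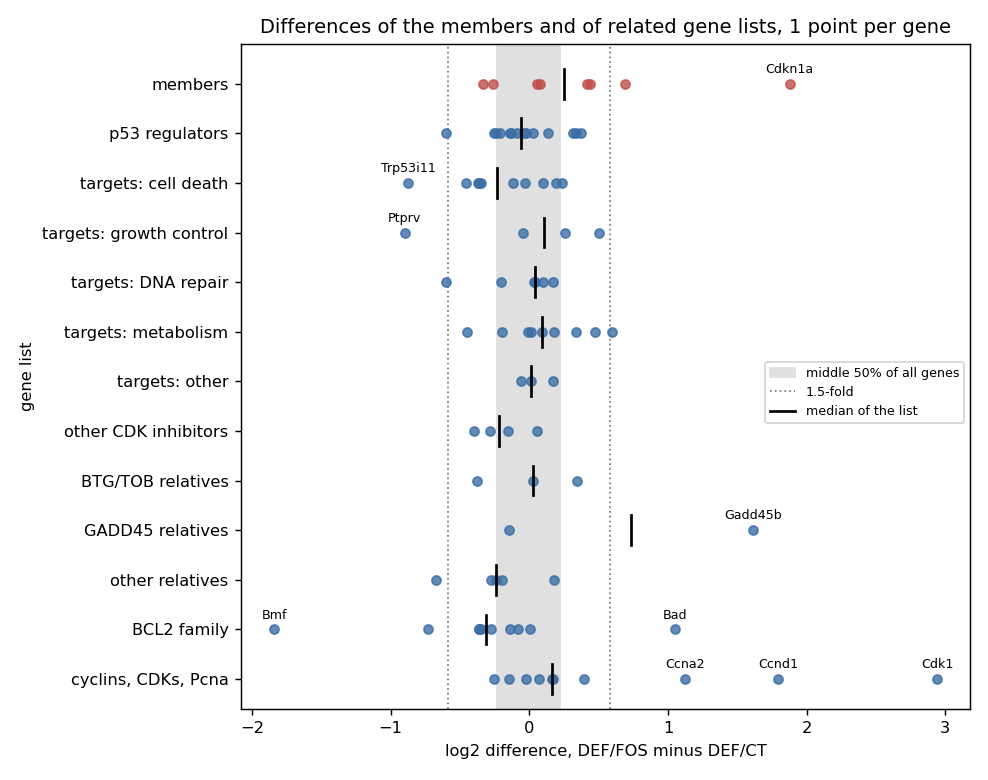
Log2 difference (DEF/FOS minus DEF/CT) of each gene above the floor, 1 point per gene, for the 8 genes (red) and for related lists (blue), with list medians as black bars, the middle 50% of all genes from -0.24 to 0.22 as a grey band and 1.5-fold as dotted lines. Cdkn1a, Gadd45b, Bad, Ccnd1, Ccna2 and Cdk1 lie past 1 on the right, and Bmf lies farthest to the left at -1.84. Further p53 targets lie on both sides of 0. The point of Cdk1 uses a DEF/CT signal below the floor.

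Close relatives of the 8 genes were set beside them. Of the 6 other CDK inhibitor genes 4 lay above the floor. None of the 4 was 1.5-fold apart, where 6.75% of all genes were higher by that much and 7.82% lower. Cdkn1b, encoding p27, had 86.2 against 96.9, a difference of -0.15, and Cdkn2c, a CDK4 and CDK6 inhibitor, differed by 0.05. Cdkn1c had 18.8 in DEF/FOS, under the floor, against 25.2, and Cdkn2d, with 30.8 against 37.9, differed by -0.29. Cdkn1a, chosen with its signals known, was the only one of the 5 CDK inhibitor genes above the floor to reach 2-fold. Of all genes, 1.74% were at least 2-fold higher in DEF/FOS and 2.19% lower, so nothing is read from that count.

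Gadd45b, a relative of Gadd45a known to be induced in liver by NF-kappaB and by growth stimuli, had 120 against 39.7 by its brightest probe set, 3.06-fold higher in DEF/FOS. Of its other probe sets, 1420197_at gave 43.6 against 35.1, a difference of 0.33, and 1450971_at gave 109 against 5.07, the latter under the floor, so at least 5.66-fold higher. All 3 readings lay on the DEF/FOS side and differed widely in size. Gadd45g had 817 against 912, a difference of -0.14. By their brightest probe sets, the relatives of Btg2 were not 1.5-fold apart. Btg1 had 1106 against 1453, a difference of -0.38, and Tob1 differed by 0.03. Tob2 differed by 0.35, while its 5 probe sets ran from -0.36 to 0.94, the last at 221 against 116. Sesn3 differed by -0.28. Ccng2, the relative of Ccng1, had 326 against 378 by its brighter probe set and 125 against 108 by the other, differences of -0.20 and 0.22. Phlda1 was 1.59-fold lower in DEF/FOS at 1847 against 2974, and Trp53inp2 differed by -0.24. The full set of 24 relatives above the floor also counts 10 genes of the BCL2 family, relatives of Bax, which are described next. By their brightest probe sets, 7 of the 24 were above 0, beside 49.9% of all genes, and the median was -0.22. The other 17 were below 0, 8 of them in the BCL2 family. In 4 of these 17, 3 of them in the BCL2 family, another probe set was above 0.

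In the BCL2 family, to which Bax belongs, 2 of 10 genes were above 0 by their brightest probe sets, beside 49.9% of all genes, and the median was -0.31. Of the 8 below 0, Bcl2l1, Bcl2l11 and Bik had other probe sets above 0. Bcl2l1, a survival gene, had 148 against 192 by its brightest probe set, but a dimmer one had 43.5 in DEF/FOS against a signal under the floor, at least 2.26-fold higher. Bmf, a BH3-only protein, was 3.58-fold lower in DEF/FOS at 31.9 against 115. Bok, a relative of Bax that forms pores, was 1.66-fold lower at 95.9 against 160. Bad was 2.07-fold higher by its brighter probe set, at 127 against 62.0, while its other probe set gave -0.32. By their brightest probe sets, Bmf and Bok were the 2 genes of the family at least 1.5-fold lower, and each rests on 1 probe set. The muscle markers lie on the same side as Bmf, with a part that was not tested.

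Cyclins and kinases that p21 binds were read together with Pcna. Of 10 such genes above the floor, 3 reached 1.5-fold on the DEF/FOS side and 0 on the other, beside 6.75% and 7.82% of all genes. The same 3 reached 2-fold, beside 1.74% of all genes, and the median was 0.16. The list was written with earlier results of these data known, so nothing is read from these counts. Of the 5 genes with several probe sets above the floor, 3 had readings of opposite sign. The summed signals of neutrophil and Kupffer cell markers lay on the DEF/FOS side as well, and their part was not tested. Ccnd1, the G1 cyclin, had 739 against 216 and was higher by all of its 3 probe sets, from 1.09 to 1.79. Ccna2 was 2.18-fold higher at 51.7 against 24.0, and 1.41-fold by its other probe set, at 31.3 against 22.4. Cdk1, at 76.8 against a DEF/CT signal under the floor, was at least 3.99-fold higher. Cdk2, a main kinase target of p21, had 106 against 102 and differed by 0.07. Cdk4 differed by -0.25 by its brightest probe set, and its other two gave 0.05 and 0.38.

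The 5 genes whose signals in both pools lay nearest to those of Cdkn1a, by Euclidean distance of the log2 signals over 2 arrays, were Acnat2, Acot2, Acot3, Gripap1 and Fam124a. Acnat2, an acyltransferase of peroxisomes, was nearest at a distance of 0.11, with 293 against 80.4. Acot2 and Acot3, acyl-CoA thioesterases, followed at 0.18 and 0.28, although Acot2 had 2 readings of opposite sign. Gripap1 and Fam124a lay at 0.40 with differences of 1.33 each. Likeness over 2 arrays says only that the signals were close.

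**Figure D4:**
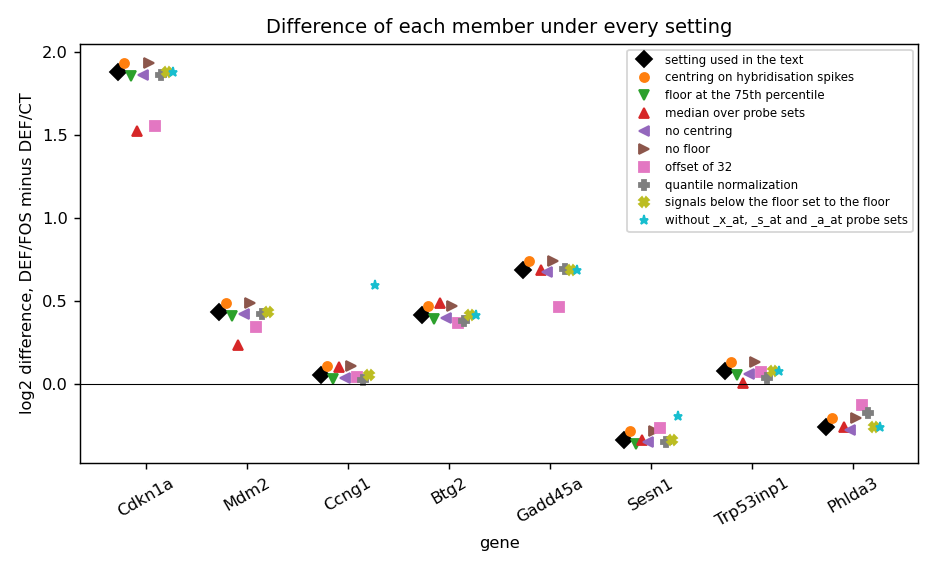
Log2 difference (DEF/FOS minus DEF/CT) of each of the 8 genes under the setting used in the text (black diamonds) and 9 other settings (coloured symbols). Cdkn1a stays between 1.53 and 1.93, Gadd45a between 0.46 and 0.74 and Sesn1 between -0.36 and -0.19, while Ccng1 goes from about 0.05 to 0.60 when the probe set 1450016_at represents it.

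Every one of the 8 genes kept the sign of its difference under all settings in which it lay above the floor. All settings reuse the same 2 arrays, so this says nothing of animals or arrays. Trp53inp1, with probe sets of opposite sign, came down to 0.007 with the median over them. Cdkn1a ran from 1.53 with the median over its probe sets to 1.93 with no floor, at least 2-fold higher throughout.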

How the data were processed

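The authors hybridised pooled liver RNA to Affymetrix GeneChip arrays, 1 per group, and deposited MAS5 signal intensity values on a linear scale for 45101 probe sets. GCOS and MAS5 are named per the submitters' processing notes, with no version. The deposited intensity values share a trimmed mean (2% left out at each end) of 100.0. Detection calls and background values were not used here. With 1 array per group, the number of arrays limits the precision.

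Symbols came from the platform annotation, which can be old: 34945 probe sets had 1 symbol, 932 had several and 9160 that are not among the 64 controls were not listed. Entrez identifiers matched a RefSeq table of GRCm38.p6 for 34741, and 0 symbols changed. The log2 signals were subtracted, and the median above the floor, -0.01, was set to 0. For a signal under the floor in 1 pool, the floor took its place and the fold is a lower bound. Promoter windows are RefSeq's, GRCm38.p6.

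Members, lists and settings were chosen with earlier results of these data known. All members were named, with up to 3 genes of largest absolute difference per list and 11 genes by symbol, the 2 brightest markers per cell type at most, and the 5 genes nearest to Cdkn1a. Cdkn2c, Ccng2, Cdk2, Cdk4, Tob1, Prkab1, Siva1, Aen, Bcl2l1, Bcl2l11, Bik, Atf4, Ddit3, Asns and Chac1 were added after their values were seen. The procedure was tested on simulated data. Python 3.11.15, numpy 2.4.6 and pandas 2.3.3 were used.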

Additional observations from a re-analysis of the deposited data

How the results depend on the processing

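The 9 other settings left the count of members at least 2-fold higher at 1 and the count at least 1.5-fold lower at 0. The count at least 1.5-fold higher was 2 in the setting of the text and 3 without probe sets ending in _x_at, _s_at or _a_at, where Ccng1 joined at 0.60. It was 1 with the floor at the 75th percentile of signal, which leaves 6 members and removes Gadd45a, and 1 with an offset of 32, which shrinks dim genes and put Gadd45a at 0.46. The median difference of the members ran from 0.17 to 0.41. The background also moved. The share of all genes at least 1.5-fold higher was 15.7% with no floor, 3.61% with the higher floor and 2.49% with the offset, and the share at least 1.5-fold lower was 19.5%, 3.14% and 2.31%. No paired analysis was possible because each group has 1 array, and no array could be left out for the same reason. Dim probe sets, such as that of Phlda3, limit what can be said of small differences.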

Other observations

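Gdf15 and Sesn2 are also known as targets of the integrated stress response, in which the factor ATF4 answers amino acid shortage and endoplasmic reticulum stress, so 7 genes of that response were read. All 7 lay above the floor, with 3 differences above 0, 4 below and a median of -0.03. Both genes with several probe sets above the floor, Atf4 and Trib3, had readings of opposite sign. Atf4 had a signal of 784 in DEF/FOS and 810 in DEF/CT, and Ddit3, which encodes CHOP, had 95.4 against 91.8. Fgf21, a fasting hormone that is also a target of PPARα, was 1.91-fold higher in DEF/FOS at 267 against 141. Trib3, a pseudokinase induced by ATF4 and CHOP, was 1.87-fold lower at 41.0 against 77.4, with its 2 probe sets at -0.90 and 0.26. Atf3, an immediate stress factor, had 118 against 88.7 and differed by 0.42. Asns and Chac1, both ATF4 targets, differed by -0.19 and -0.24.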
